A study of Bos taurus with 24 samples.

Results

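The in vivo derived blastocysts were the 8 embryos of the series that developed in cows, of 24 single blastocysts sequenced in all. They were chosen by their labelled growth condition alone, and no measured value entered the choice. All were early blastocysts of the highest morphological grade from superovulated Holstein cows that had been inseminated with thawed semen of one bull. The uterus was flushed 7 days after insemination. The embryos came from 3 cows, and the labels do not say which cow gave which embryo, so some of the 8 were full siblings and all shared a sire. Each embryo was lysed, amplified and sequenced on its own and constituted one replicate. Embryos A1, A2, A3, A4 and A8 were labelled male and A6, A7 and A9 female, a sex that had been assigned by whether DDX3Y transcript was amplified from part of the same RNA.

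The blastocyst is the stage at which the embryo has separated its first lineages. An outer epithelium, the trophectoderm, pumps fluid into a cavity and later forms the fetal part of the placenta, while the inner cell mass sorts into epiblast, the source of the fetus, and hypoblast, the source of the yolk sac. In cattle the embryo hatches and then floats free for a prolonged period before it attaches, and the trophectoderm secretes interferon tau, the signal by which ruminants recognise pregnancy.

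The table held exon counts of 24621 features. The embryos had between 3622680 and 5743015 counts with a median of 4400694, and 13136 to 14381 genes per embryo had at least 1 count. At least 15 counts were reached in every embryo by 6966 genes, which took 98.1% of all counts. Levels are given in CPM, counts per 1000000 exon counts after TMM normalization, and 3 counts corresponded to 0.518 to 0.794 CPM. CPM is a share of fragments that is not divided by transcript length, so the order of genes by CPM is an order of counts and not of molecules. Any pair of embryos had a Spearman correlation of log2 CPM between 0.910 (A3 and A9) and 0.954 (A1 and A2) over these genes, and no pair was close enough to be one library deposited again. Between embryos, variation is given as the coefficient of variation (CV), the SD of the 8 CPM values divided by their mean, and genes are ordered by CV only where all 8 embryos had at least 15 counts.

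The most counted genes of the blastocyst encoded the cytoskeleton, the mitochondrial respiratory chain, protein synthesis and chaperones. The 10 genes with the highest mean took 11.3% ± 0.598 (SD, n = 8) of an embryo's counts and the 100 highest took 29.6% ± 0.819, while 413 genes held 50% of the mean CPM and 3426 held 90%. ACTB_2, one of several features listed under the symbol of beta-actin, led with 27424 ± 3487 CPM (SD, n = 8) and ranged from 23598 (A6) to 32235 CPM (A3). It was followed by COX3 (mean 15816 CPM) and COX1 (14931 CPM), subunits of cytochrome c oxidase that the mitochondrial genome encodes. EEF1A1_2, a translation elongation factor, had a mean of 9650.2 CPM. KRT8, an epithelial keratin, reached a mean of 8861 CPM and was the sixth gene in the order. ACTG1 (gamma-actin) had 8004 CPM, CKB (creatine kinase, which regenerates ATP) 6311 CPM, HSPA8 (a constitutive chaperone) 6269.8 CPM and UBB (ubiquitin) 6236 CPM. FN1 (fibronectin, an extracellular matrix protein), ATP5B (ATP synthase), RPSA (a ribosomal protein), TMSB4_1 (thymosin beta 4, which binds actin monomers) and SLC2A3 (the glucose transporter GLUT3) completed the 20 with mitochondrial genes.

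Among these 20 genes UBB was the steadiest, with a CV of 0.0647, and TMSB4_1 the least steady, with a CV of 0.446. UBB ranged from 5598 (A1) to 6847 CPM (A4). TMSB4_1 had 2100.1, 1823, 2542, 2290.4 and 2383 CPM in the 5 male embryos and 5944, 3874 and 3358 CPM in the 3 female embryos, so that the sexes did not overlap. Over all genes tested between the sexes, 9.67% did not overlap. Of the 20 most counted genes 5 did not overlap, namely TMSB4_1 and, with higher male values, EEF1A1_2, ATP5B, RPSA and SLC2A3. None of them was called differentially expressed by the criteria given with the sex comparison.

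**Figure D1:**
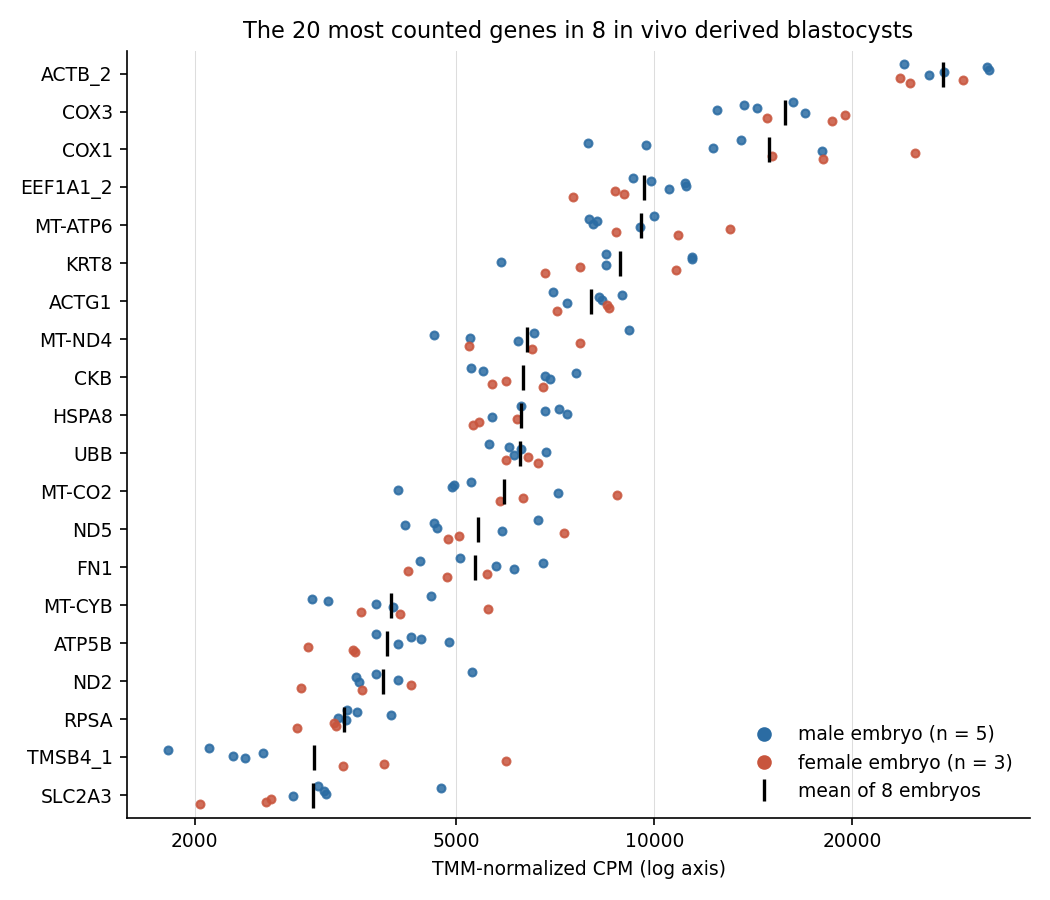
TMM-normalized CPM (log axis) of the 20 genes with the highest mean, with 1 point per in vivo derived embryo and the mean of the 8 as a bar. ACTB_2 stands apart at a mean of 27424 CPM, COX1 is spread from 7916 to 24893 CPM, and the 3 female points of TMSB4_1 lie to the right of the 5 male points.

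All 13 protein-coding genes of the mitochondrial genome were counted in every embryo and together took 7.10% ± 1.45 (SD, n = 8) of the counts. Their summed CPM ran from 56414 (A3) over a median of 71360.1 to 97781 CPM (A6). Embryo A6 had the highest value of 10 of the 13 genes, and A3 the lowest value of 7. COX1 varied most among them, with a CV of 0.361, and COX3 least, with 0.155. The 55 cytosolic ribosomal protein genes that were looked up took 4.48% ± 0.319 of the counts and varied less, with a median CV of 0.0988. Embryo A8 had the highest value of 38 of these 55 genes and A9 the lowest of 38. Their summed CPM nevertheless differed only from 38875 (A9) to 50738 (A8).

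Some transcription factors that act in the trophectoderm were counted at moderate levels, while others, CDX2 among them, were low or absent. Of the 20 factors looked up, 9 had at least 15 counts in all 8 embryos. TFAP2C, an AP-2 family factor, was the highest, with 122 (A2), a median of 225 and 259 (A6) CPM as the lowest, median and highest embryo. KLF6 had a mean of 167 CPM, ESRRB 154 CPM and GRHL1, a grainyhead factor of epithelia, 123 CPM. GATA3 had 82.5 ± 16.6 CPM (SD, n = 8) and ranged from 51.9 (A8) to 107 CPM (A4). TEAD4, the DNA-binding partner in the Hippo pathway, was the steadiest of the list at 32.3 ± 5.94 CPM and a CV of 0.184, and ID2 the least steady at 15.2 ± 8.32 CPM and 0.548. GRHL1 was low in a single embryo, with 45.7 CPM in A9 against at least 112 in the other 7.

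CDX2, the homeobox factor by which trophectoderm is usually recognised, had only 2 to 11 counts per embryo, or 1.23 ± 0.781 CPM. It was above 0 in all 8 embryos. ELF5, EOMES, ID1 and PPARG had under 15 counts in every embryo, and ASCL2 had 0 in all of them. In whole embryos, fewer cells of a type and less RNA per cell cannot be told apart. Only uniquely placed exon fragments were counted, so a low count or 0, here and for the genes below, need not mean that the transcript was missing.

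Epithelial and secreted products of the trophoblast had the highest summed CPM of the lineage lists, to which KRT8 gave the most. The lists differ in size and CPM is not divided by transcript length, so the sums do not rank the lineages. The summed CPM of these products was 18415 ± 3043 (SD, n = 8), and 21 of the 29 listed genes had at least 15 counts in every embryo. KRT8 had 5848 (A4), a median of 8439.6 and 11423 (A3) CPM as the lowest, median and highest embryo. Its partner keratin KRT18 had 1001 (A9), a median of 1769 and 2765 (A2) CPM. CLDN6, a tight junction protein, had a mean of 2095 CPM, S100A14 1368 CPM and EZR (ezrin, which ties membrane to actin) 1052 CPM. S100A14 was the steadiest of the list, with a CV of 0.0941.

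The variation of this list was wider than that of most genes, with a median CV of 0.329 beside 0.248 over all genes counted in every embryo. Embryo A4 had the lowest value in 9 of the 21 genes and A9 in 5, while A1 had the highest in 6 and A2 in 5. KRT19 had 15.7 CPM in A4 and 14.4 CPM in A9, against 38.00 to 67.2 CPM in the other 6 embryos. PRSS8, a membrane serine protease of epithelia, ranged from 14.99 (A4) to 109.9 CPM (A1), and SFN, an epithelial 14-3-3 protein, from 21.7 (A4) to 105 CPM (A2). A4 was thus the lowest embryo for both of these genes. TFAP2C and GATA3 in A4, in contrast, were 224 and 107 CPM, above their means over the 8 embryos.

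Products of the ruminant placenta were present at low and uneven levels. PAG2, a pregnancy-associated glycoprotein, had 46.9, 118, 27.1, 7.16 and 10.1 CPM in the male embryos and 12.6, 5.31 and 5.44 CPM in the female embryos. A2 and A1 were the highest, and the sexes overlapped. IFNT, interferon tau, had 3.97, 15.5, 12.8, 7.83 and 7.55 CPM in the male embryos and 27.6, 48.3 and 15.6 CPM in the female embryos. All 3 female values lay above all 5 male values, but by a margin of 15.6 against 15.5 CPM at the boundary. The log2 difference of male minus female was -1.68 ± 0.45 (SE) for IFNT with an adjusted p of 0.0949 in edgeR's quasi-likelihood test. DESeq2 gave an adjusted p of 0.0160 for IFNT and edgeR's exact test 0.0156. Interferon tau genes occur as several near-identical copies, so the split of reads among them is uncertain, and the feature listed as IFN-TAU had 0 to 6 counts. TKDP1, AQP9, PAG12 and VIL1 of the same list had under 15 counts in every embryo.

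The 14 genes of the inner cell mass and epiblast counted in every embryo had a median CV of 0.258, beside 0.329 for the trophoblast products. The summed CPM of the 20 listed genes was 2836 ± 217 (SD, n = 8) and ran from 2503 (A9) over a median of 2848 to 3147 CPM (A3). SPIC, an ETS family factor, was the highest with a mean of 572 CPM. DNMT3A, a de novo DNA methyltransferase, had 456 CPM, ZFP42 (also called REX1) 449 CPM and DPPA3 (also called STELLA) 439.9 CPM. DPPA3 is also deposited by the oocyte and stands in the list of oocyte transcripts as well. POU5F1, which encodes OCT4, had 180.0 (A2), a median of 207 and 242 (A7) CPM as the lowest, median and highest embryo. Its CV of 0.0914 was the lowest of the list.

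SOX2 and NANOG, the other core pluripotency factors, were counted far less than POU5F1. SOX2 had 8.21 ± 2.72 CPM and ranged from 5.85 (A6) to 14.2 CPM (A7). NANOG had 25.9, 14.5, 16.5, 4.03 and 6.37 CPM in the male embryos and 18.7, 9.52 and 1.66 CPM in the female embryos, with only 7 counts in A9. A4, A8 and A9 were the lowest for NANOG, but their POU5F1 values of 207, 207 and 229 CPM lay within the range of the other 5 embryos. TRIM71 was the most variable gene of the list counted in every embryo, with a CV of 0.394. FGF4, LIN28B and UTF1 had under 15 counts in every embryo, and NODAL had 0.

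The hypoblast list combined matrix and endocytosis genes that were high with transcription factors that were low. FN1 had 5339 ± 872 CPM (SD, n = 8). LRP2 (megalin, an endocytic receptor) had a mean of 854 CPM, DAB2 (its adaptor) 594 CPM and PDGFRA, a growth factor receptor of the hypoblast lineage, 429 CPM. DAB2 was the steadiest of the list, with a CV of 0.122. SPARC, a matrix glycoprotein, had 858, 515, 711, 512 and 804 CPM in the male embryos and 132, 174 and 898 CPM in the female embryos. A6 and A7 were the low embryos for SPARC, while the other female embryo, A9, was the highest of all 8.

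GATA6, the earliest factor of the hypoblast lineage, had at least 15 counts in every embryo and ranged from 13.7 (A9) to 26.8 CPM (A7). NID2, a basement membrane protein, was the most variable gene of the list, with a CV of 0.589. GATA4, which follows GATA6, had 0 to 21 counts and was at 0 in A3 and A9. SOX17 was at 0 in all 8 embryos, as was APOA2. FOXA2, SOX7, TTR, AFP, AMN, CUBN, APOE and FGFR1 had under 15 counts in every embryo. Of the 9 markers taken to define a blastocyst, KRT8, KRT18, GATA3, POU5F1, SOX2 and GATA6 were thus counted in every embryo at the limit of 15, NANOG fell below it in 1 embryo, CDX2 fell below it in all, and SOX17 was not counted.

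**Figure D2:**
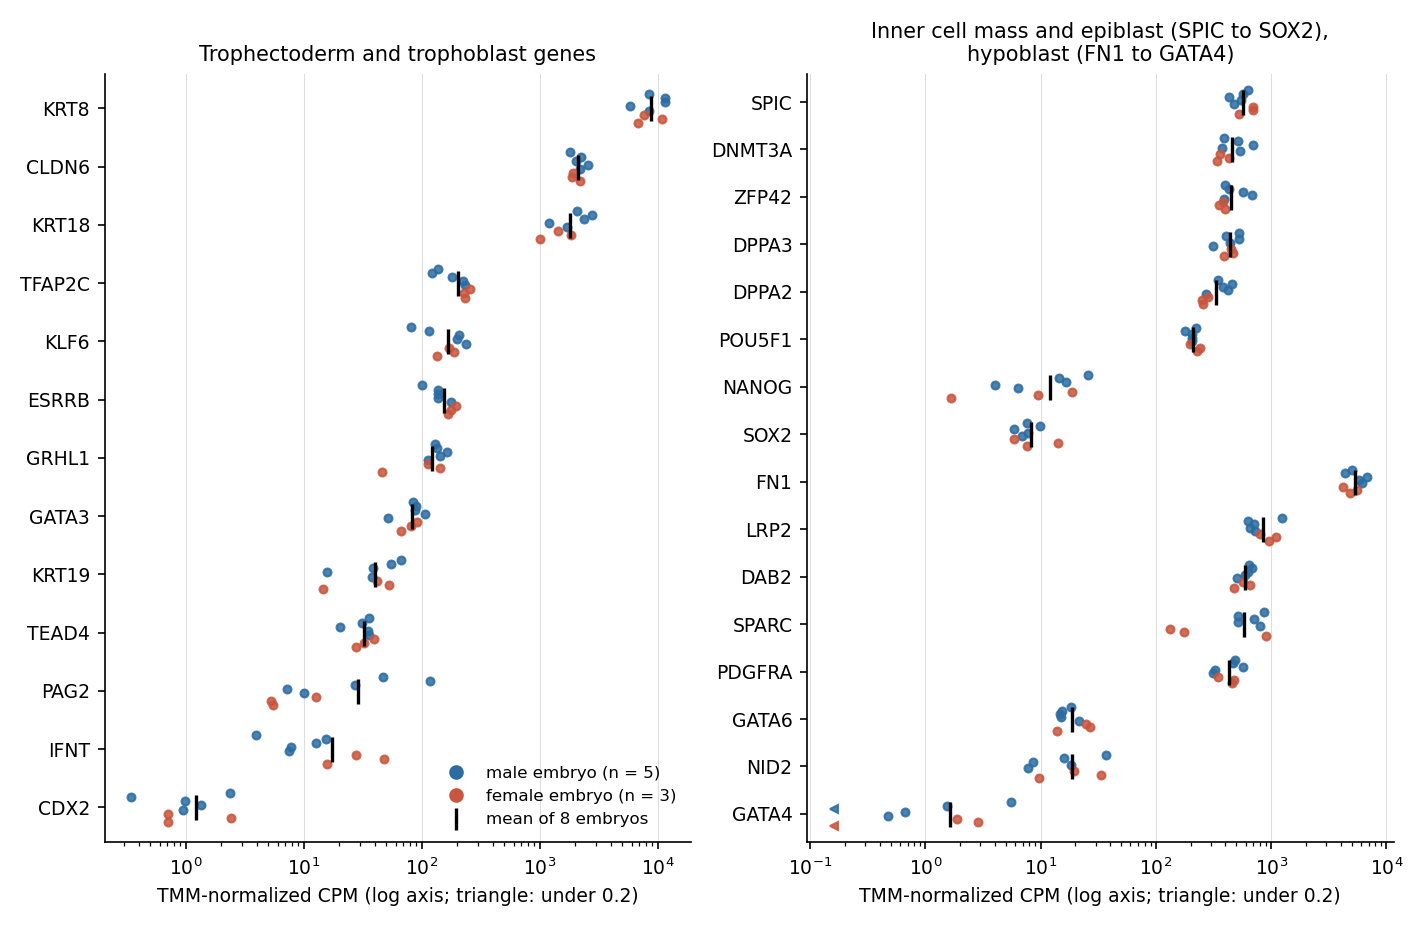
TMM-normalized CPM (log axis) of lineage genes in the 8 in vivo derived embryos, with trophectoderm and trophoblast genes on the left and inner cell mass, epiblast and hypoblast genes on the right, and the mean of the 8 as a bar. POU5F1 is the narrowest row of the right panel with a CV of 0.0914, NANOG is spread from 1.66 to 25.9 CPM, and the low SPARC points belong to the female embryos A6 and A7.

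Glucose uptake and glycolysis genes were abundantly counted. The 24 listed genes summed to 12955 ± 1055 CPM (SD, n = 8), and the 18 counted in every embryo had a median CV of 0.197. Variation falls with level, and 10 of these 18 had a CV below the median of all genes of their class of level (under 10, 10 to 100, 100 to 1000 or at least 1000 CPM). SLC2A3 had 2037 (A9), a median of 2950.0 and 4743 (A2) CPM as the lowest, median and highest embryo. It was counted more than SLC2A5, the fructose transporter, with a mean of 684 CPM, or SLC2A1 (GLUT1), with 433 CPM, on this scale of fragments. BSG (basigin, which escorts lactate transporters to the membrane) had a mean of 2069 CPM, PGAM1 1385 CPM, ALDOA 1239 CPM and LDHB 961 CPM. ALDOA was the steadiest of the list with a CV of 0.0803 and ALDOC, another aldolase, the least steady with 0.484. LDHA, the muscle-type subunit of lactate dehydrogenase, had 348 CPM in A6 against 112 to 174 CPM in the other 7. PFKP and ENO2 had under 15 counts in every embryo.

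In the pentose phosphate pathway, 8 of 9 genes were counted in every embryo. TKT (transketolase) led with 1335 (A6), a median of 1717 and 2318 (A4) CPM as the lowest, median and highest embryo. PGD had a mean of 522 CPM, TALDO1 (transaldolase) 490.1 CPM, RPIA 403 CPM and PRPS1 234 CPM. TALDO1 was the steadiest with a CV of 0.0937 and PRPS2 the least steady with 0.473.

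All 25 listed genes of pyruvate dehydrogenase and the citric acid cycle were counted in every embryo. They summed to 12972 ± 1508 CPM (SD, n = 8). IDH1, the cytosolic isocitrate dehydrogenase, had a mean of 1733 CPM, IDH3A 1453 CPM, MDH2 1087 CPM and MDH1 898 CPM. CS, citrate synthase, had 819, 878, 2606, 2483 and 1867 CPM in the male embryos and 1406, 1124 and 1477 CPM in the female embryos. A3 and A4 were the high embryos for CS and A1 and A2 the low ones, all of them male. A3 or A4 also had the highest value for 14 of the 25 genes. SDHD, a subunit of succinate dehydrogenase, was the steadiest of the list with a CV of 0.0674, and ACO1, the cytosolic aconitase, the least steady with 0.557.

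Sterol genes were low and uneven. The 22 listed genes summed to only 607 ± 94.4 CPM (SD, n = 8), and the 14 counted in every embryo had a median CV of 0.340. EBP, a sterol isomerase, had a mean of 57.99 CPM, FDFT1 43.5 CPM and HMGCS1 43.3 CPM. FDPS was the steadiest with a CV of 0.152. NSDHL, a sterol dehydrogenase encoded on the X chromosome in mammals, had 40.5, 37.8, 29.3, 42.5 and 25.3 CPM in the male and 82.6, 52.5 and 109 CPM in the female embryos, and its CV of 0.551 was the highest of the list. TM7SF2 had under 15 counts in every embryo.

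The fatty acid list was led by ACLY, ACSL3, FABP3, PLIN2 and ELOVL5 in the order of counts. ACLY, which makes cytosolic acetyl-CoA, had a mean of 555 CPM and ranged from 418 (A9) to 878 CPM (A3). ACSL3, an acyl-CoA synthetase, had 397 CPM, FABP3, a fatty acid binding protein, 382 CPM, PLIN2, the coat protein of lipid droplets, 238 CPM and ELOVL5, an elongase, 188 CPM. The synthesis enzymes FASN and ACACA had lower means of 30.1 and 13.3 CPM. SCD, stearoyl-CoA desaturase, was the most variable of the list, with 40.7 CPM in A9 against 8.74 to 19.7 CPM in the other 7 embryos. ELOVL1 was the steadiest with a CV of 0.130, and ACACB had under 15 counts in every embryo. The 17 genes of mitochondrial fatty acid oxidation summed to 1445 ± 115 CPM, with ETFB (mean 276 CPM), ETFA (186 CPM), HADHB (141 CPM), ACADM (135 CPM) and ECHS1 (126 CPM) the highest. ETFB was their steadiest gene with a CV of 0.131. CPT1A, which controls the entry of fatty acids into mitochondria, was the least steady with 0.450 and ranged from 22.4 (A3) to 111 CPM (A9).

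Serine, folate and methionine metabolism held steady and unsteady genes side by side. The summed CPM of its 20 listed genes was 2223 ± 160.1 (SD, n = 8), with a CV of only 0.0720. AHCY (S-adenosylhomocysteine hydrolase) had a mean of 667 CPM, MAT2B 220.5 CPM, GNMT (glycine N-methyltransferase) 197 CPM, MAT2A 185 CPM and AMT 169 CPM. MAT2B, the regulatory subunit of methionine adenosyltransferase, was the steadiest with a CV of 0.0722.

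Of its 18 genes counted in every embryo, 8 had a CV above the 75th percentile of all genes. PHGDH, PSAT1, PSPH and SHMT2 were among the 8. PHGDH, the first enzyme of serine synthesis, had 17.5, 41.6, 105, 22.8 and 39.9 CPM in the male embryos and 23.4, 10.4 and 34.1 CPM in the female embryos, and its CV of 0.802 was the highest of the list. PSAT1, the next enzyme, ranged from 11.7 (A7) to 103 CPM (A3), and SHMT2, mitochondrial serine hydroxymethyltransferase, from 23.9 (A4) to 90.7 CPM (A3). A3 was the highest embryo for all 3 of these genes, and the sexes overlapped in each. PYCR1, which makes proline and is not a member of the list, was also highest in A3, with 57.4 CPM against a median of 8.49 CPM. PSPH, the last enzyme of serine synthesis, was instead highest in A9, with 92.3 CPM, and A3 had 50.8 CPM.

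Serine synthesis genes and PYCR1 are among the known targets of ATF4, the factor of the integrated stress response, and 15 listed genes of that response were therefore looked up after the values above were known. ATF4 itself was steady at 349 ± 63.8 CPM, with a CV of 0.183, the lowest of the list. SLC3A2 had a mean of 327 CPM, ASNS (asparagine synthetase) 131 CPM, DDIT4 45.97 CPM and PPP1R15A 44.7 CPM. DDIT3, which encodes CHOP, had 15.6, 12.4, 14.6, 31.5 and 106 CPM in the male and 20.8, 33.2 and 50.4 CPM in the female embryos. A8 was the high embryo for DDIT3 and for ATF4. A3, the high embryo for PHGDH, had one of the lowest DDIT3 values. The 15 listed genes summed to 1095 CPM in A3, above the median of 972 CPM. Whether the serine genes moved with this response was not tested. Of the 10 genes of this list counted in every embryo, A8 and A2 each had the highest value in 2, as did A3 and A7. A8 was among the 2 highest embryos in 6 of the 10 genes and A2 in 4. The summed CPM of the 15 listed genes was also highest in A8, at 1379 CPM against a median of 972 and a lowest of 828 CPM (A6).

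**Figure D3:**
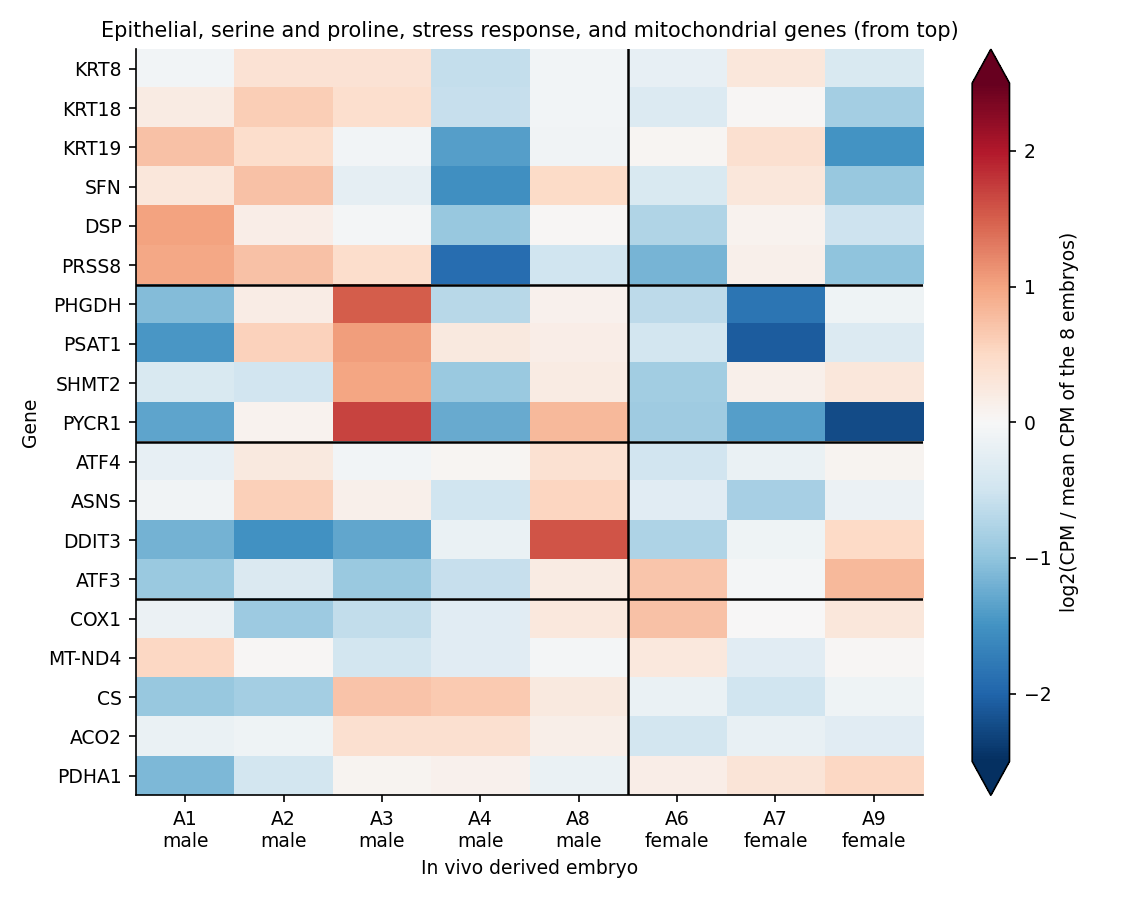
log2 of CPM over the gene's mean of the 8 in vivo derived embryos, in colour, for epithelial genes, serine and proline synthesis genes, stress response genes and mitochondrial genes from top to bottom, with male embryos left of the line. The epithelial rows are blue in A4 and A9, the serine and proline rows are red in A3, DDIT3 is red in A8 at 106 CPM, and CS is red in A3 and A4. The rows are a choice from the lists and do not stand for them, and PSPH is not drawn. Of the 21 trophoblast genes counted in every embryo, A4 was lowest in 9 and A9 in 5. Of the 18 serine, folate and methionine genes, A3 was highest in 4 and lowest in 3.

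Antioxidant genes were led by peroxiredoxins. PRDX2 had 1745 (A1), a median of 2019.5 and 2145 (A4) CPM as the lowest, median and highest embryo, and its CV of 0.0744 was the lowest of the list. PRDX6 had a mean of 757 CPM, PRDX1 570.4 CPM, TXNRD1 (thioredoxin reductase) 312 CPM and TXN2 (mitochondrial thioredoxin) 272 CPM. A9 had the lowest PRDX1 (223 CPM) and PRDX6 (384 CPM) and the highest TXNRD1 (511 CPM). Over the 15 genes of the list counted in every embryo A9 did not stand out. It was highest in 3, as were A2 and A3, and lowest in 2, while A6 was lowest in 4. GSS, glutathione synthetase, was the least steady with a CV of 0.518. GPX3, GPX4, GSTM3 and TXNRD2 had under 15 counts in every embryo.

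Genes commonly used to normalize measurements in embryos were counted in every embryo, all 16 of those listed. Of these 11 had a CV below the median of their class of level, 9 had a CV under 0.170, the 25th percentile of all genes, and the median CV was 0.169. PPIA (cyclophilin A) had a mean of 964 CPM, H2AFZ (a histone variant) 902 CPM, SDHA 883 CPM and PGK1 554 CPM. PPIA was the steadiest with a CV of 0.0791, H2AFZ had 0.0820, and TBP, at a mean of only 8.05 CPM, the least steady with 0.339. Single embryos reached 93.7 CPM (A9) and fell to 37.3 CPM (A1) for GUSB, a CV of 0.308.

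Markers of cells that could be carried along were absent or low for most listed genes, and ODF2 and a few others were counted. Of 14 listed markers of cumulus and granulosa cells, FSHR, LHCGR, INHA, INHBA, AMH, FST and FOXL2 had under 15 counts in every embryo and PTX3 and NR5A1 had 0. Their summed CPM ran from 13.7 (A9) over a median of 42.8 to 57.6 CPM (A6), of which CYP19A1 (aromatase) and STAR gave means of 14.3 and 12.2 CPM. CYP11A1, GATM and HAS2 had means of 3.64, 3.38 and 1.92 CPM. The 10 markers of uterine and oviductal epithelium summed to between 2.12 and 13.3 CPM. Among them CXCL14 had a mean of 3.13 CPM, LTF 1.27 CPM, OVGP1 (oviductal glycoprotein) 1.23 CPM and MUC1 0.816 CPM, PAX8, MUC16, PGR, ESR1 and TFF3 had under 15 counts in every embryo, and FOXJ1 had 0. The 14 markers of blood and immune cells summed to between 14.3 and 71.7 CPM, most of it ALAS2 (mean 13.7 CPM) and CSF1R (13.4 CPM), with CD68 and CD14 at means of 4.19 and 1.89 CPM. The beta-globin gene HBB had 0 to 3 counts, the leukocyte gene PTPRC 0 to 3, and CD3E, CD3G, LYZ, ITGAM, HBM, S100A8 and CD79A also had under 15 counts in every embryo, with S100A9 at 0. In the sperm list ODF2, with a mean of 74.2 CPM, and SPATA18, with 7.39 CPM, were the genes above the limit in any embryo, TNP1, TNP2, ZPBP, TSSK6, AKAP4 and ODF1 had under 15 counts in every embryo, and the protamines PRM1, PRM2 and PRM3 as well as SPEM1, GAPDHS and ACR were at 0 in all 8.

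Oocyte transcripts were mostly low, apart from DPPA3. Of 25 listed genes, 12 had under 15 counts in every embryo, namely ZP2, ZP4, NLRP5, NLRP9, OOSP1, PADI6, KPNA7, ZAR1, H1FOO, KHDC3L, NOBOX and FIGLA, the last of which had 0 in all. DPPA3 and CCNB3, with means of 439.9 and 26.7 CPM, were the members counted in every embryo. TLE6 and FBXO15 had means of 9.84 and 8.59 CPM. BTG4, an oocyte factor of maternal mRNA decay, had 139 counts in A9 and 0 to 8 in the other 7. BMP15 (47 counts), NPM2 (31) and ZAR1L (19) were likewise highest in A9, and were named after their values were seen. GDF9, another oocyte growth factor, was not, with 4 counts in A9 and up to 18 in A2.

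Embryos of one origin still differed by far more than counting error. Over the 6966 genes counted in every embryo the median CV was 0.248, with 0.0996 at the 5th and 0.511 at the 95th percentile, and the median CV that counting alone would give was 0.0722. The CV was more than 2 times the counting value in 89.9% of genes and at or below it in 22 genes. It fell with level, from a median of 0.358 in the 447 genes under 10 CPM over 0.281 (10 to 100 CPM) and 0.161 (100 to 1000 CPM) to 0.132 in the 119 genes at 1000 CPM or more. A CV over 0.5 was found for 392 genes and a CV under 0.1 for 359. The amplification of single embryo RNA adds its own error, and no technical replicates were held against which to measure it, so technical and biological variation cannot be told apart here.

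**Figure D4:**
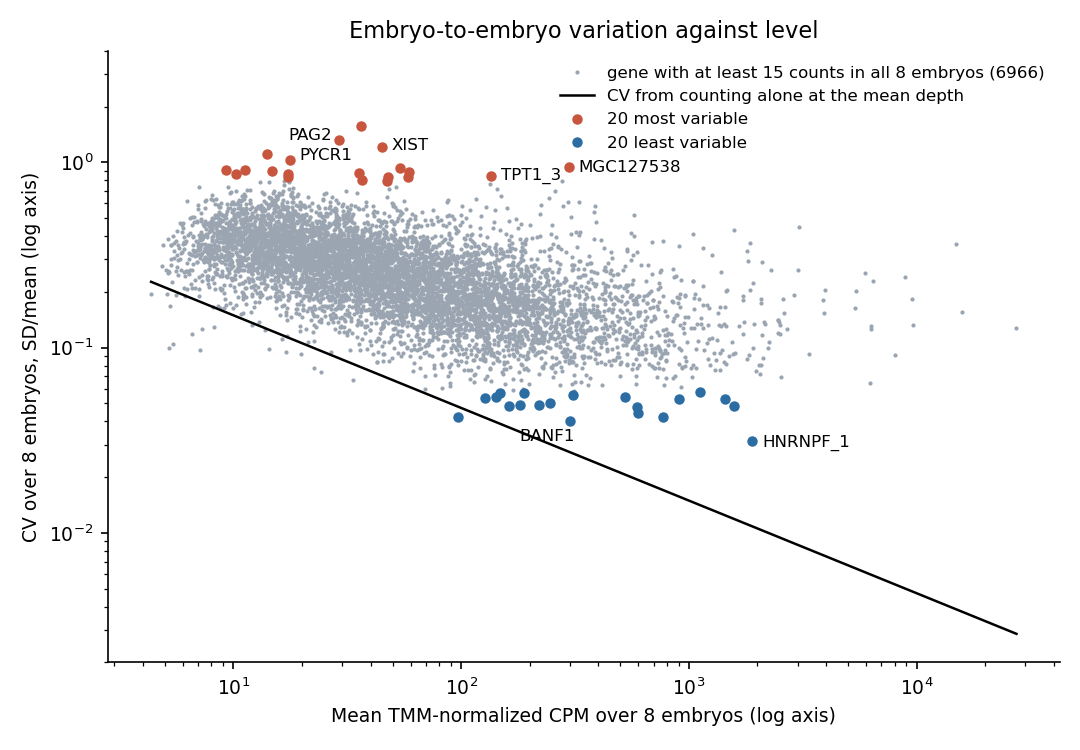
CV over the 8 in vivo derived embryos against mean TMM-normalized CPM (both log axes), 1 point per gene with at least 15 counts in all 8, with the CV from counting alone as a line. Most points lie above the line, the 20 most variable genes are red at the top and the 20 least variable blue at the bottom, with HNRNPF_1 the steadiest at a CV of 0.0315.

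The genes that varied least were of mixed function. HNRNPF_1, listed under the symbol of a splicing regulator, had 1817 (A1), a median of 1896 and 1982 (A8) CPM as the lowest, median and highest embryo and a CV of 0.0315. BANF1, which binds DNA at the nuclear envelope, had 286 (A6), a median of 297 and 321 (A8) CPM and a CV of 0.0404. BTF3, a partner of nascent peptide chains, followed with 728 (A2), a median of 764 and 819 (A4) CPM. In each of these genes the highest embryo had at most 1.12 times the CPM of the lowest. RAN_2, the GTPase of nuclear transport, had 91.5 (A6), a median of 97.4 and 102 (A4) CPM and a CV of 0.0425, below the 0.0479 of counting alone. COX5A, a nuclear-encoded subunit of cytochrome c oxidase, had 559 (A3), a median of 587 and 633 (A9) CPM and PFN1 (profilin, which binds actin) 1483 (A4), a median of 1585 and 1714 (A8) CPM. ADH5 (a glutathione-dependent formaldehyde dehydrogenase) had 152 (A1), a median of 161 and 173 (A8) CPM, and SSR2, of the endoplasmic reticulum translocon, 167 (A1), a median of 181 and 195 (A3) CPM. USP4, a ubiquitin protease, had 204 (A2), a median of 219 and 241 (A9) CPM. COX5A, PFN1, ADH5, SSR2 and USP4 had CVs from 0.0478 to 0.0491, and the first 10 were completed by a feature with no symbol.

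The next 10 by the same order were CIP29, AP2M1, NPM1, RNF167, CHD4, GABARAPL2, NUP35, UQCRQ, HNRNPA2B1 and another feature with no symbol, with CVs up to 0.0579. NPM1 is a nucleolar chaperone, CHD4 a chromatin remodeller, AP2M1 a clathrin adaptor and NUP35 a nuclear pore protein. Among the 100 least variable genes the median level was 247.7 CPM, against 46.2 CPM over all genes counted in every embryo. Of the 55 ribosomal protein genes 8 stood among these 100, and 51 had a CV under 0.170, the 25th percentile of all genes. None of the 100 was called between the sexes, which follows from the ranking, since a call required at least a 2-fold change.

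The genes that varied most were of mixed function and lower level, with a median of 16.5 CPM for the 100 most variable. ENSBTAG00000035959, which the table gives no symbol, led with a CV of 1.57. It had 143 CPM in A3 and 110.1 CPM in A4 against 3.76 to 9.001 CPM in the other 6. ENSBTAG00000035926 was high in the same 2 embryos, with 26.8 and 47.7 CPM against 3.98 to 8.47 CPM. Whether the features are related could not be read from the table. PAG2, whose values are given above, followed with a CV of 1.33, then XIST with 1.21 and, after the feature just named, PYCR1 with 1.03. PYCR1 had 3.79 (A9), a median of 8.49 and 57.4 (A3) CPM as the lowest, median and highest embryo.

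MGC127538, listed only under a clone name, was the most counted of the 20, with 86.3, 209, 62.2, 126 and 132 CPM in the male and 862, 548 and 364 CPM in the female embryos. The sexes did not overlap for MGC127538. ZNF394, a zinc finger protein, had 7.68 (A1), a median of 34.6 and 138 (A9) CPM as the lowest, median and highest embryo, with A4 (124 CPM) close behind A9. RAD54L2, a helicase of the SNF2 family, had 35.4 CPM in A8 against at most 12.4 CPM elsewhere. BAMBI, a decoy receptor of the TGF-beta family, had 5.03, 2.93, 6.49, 4.70 and 4.25 CPM in the male and 8.42, 14.4 and 28.2 CPM in the female embryos, without overlap. ATP6V1C2, a subunit of the vacuolar proton pump, had 44.5 CPM in A3 against a median of 11.1 CPM.

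The other 10 were DPEP1, DDIT3, EPT1, KIF5C, TPT1_3, ATP5E_2, TRIT1, IFNT, PHGDH and GGNBP1, with CVs from 0.797 to 0.885. DPEP1, a membrane dipeptidase, ranged from 6.87 (A9) to 177 CPM (A3) and TRIT1, which modifies tRNA, from 6.09 (A1) to 122 CPM (A3). TPT1_3 and ATP5E_2 belong to symbols with several listed features, where the split of reads among copies is uncertain. TPT1_3 ranged from 15.3 (A3) to 360.1 CPM (A6). Embryo A9 had the highest value in 26 of the 100 most variable genes and A3 in 18, beside 14.3% and 15.1% of all genes counted in every embryo. The CV was computed from the same values, so these counts are descriptions.

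**Figure D5:**
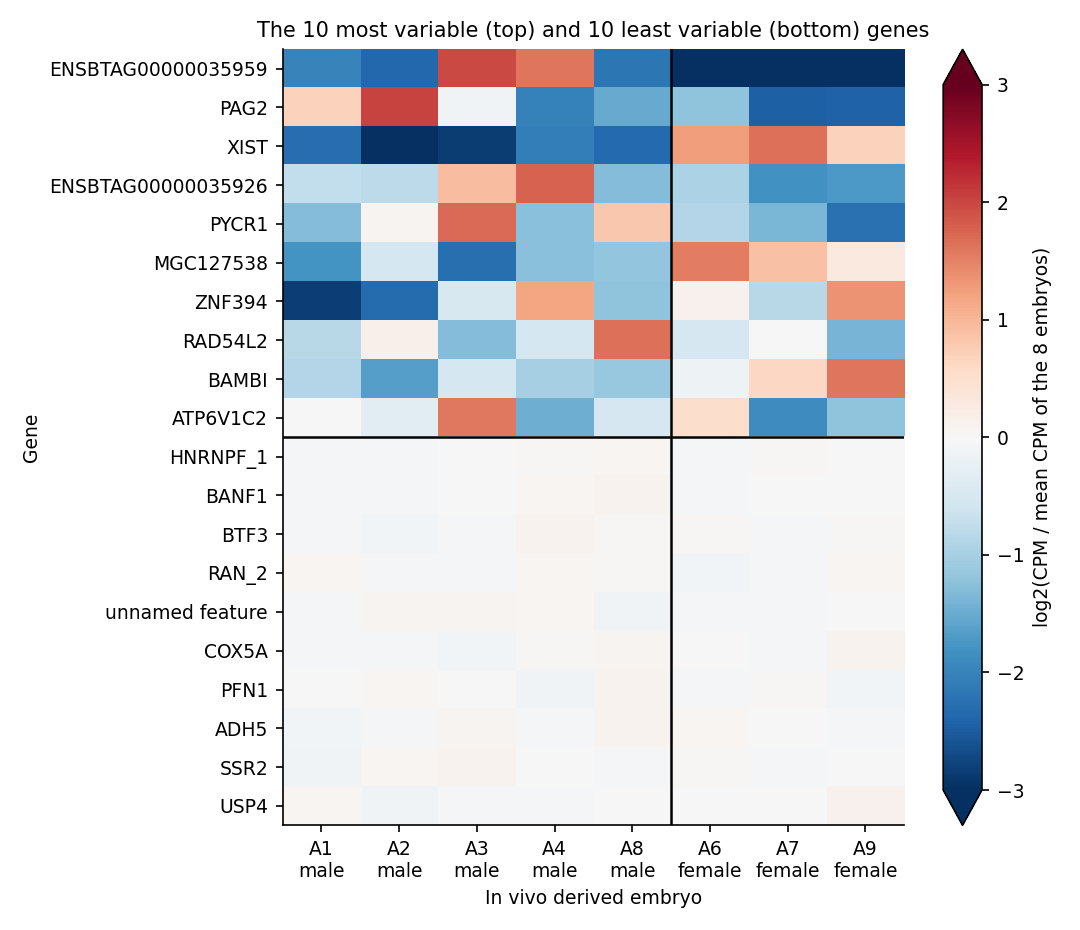
log2 of CPM over the gene's mean of the 8 in vivo derived embryos, in colour, for the 10 most variable genes (above the line) and the 10 least variable (below it), with male embryos left of the vertical line. The upper rows turn red in different embryos, such as A2 for PAG2 at 118 CPM and the female embryos for XIST, and the lower rows stay near white.

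Some genes were counted well in one embryo and not at all in another, and so lay outside the ranking by CV. At least 100 counts in 1 embryo with under 15 in another were found for 181 genes, 26 of which had 0 in an embryo. In counts A2 and A3, the most deeply sequenced embryos, were highest for 48 and 39 of the 181, and in CPM for 24 and 32. The genes named in this paragraph were chosen after their values were seen. NPSR1, a neuropeptide receptor, had 272, 182, 223, 441 and 333 counts in A2, A4, A8, A6 and A7 but 0 in A1 and A3 and 1 in A9. PID1 had 297, 437, 218 and 97 counts in A1, A2, A8 and A9 and at most 1 in the other 4. CPQ, a secreted peptidase, had 330 counts in A3 and 141 in A6 but 0 in A4 and A7. HSD3B, a steroid dehydrogenase, had 106 counts in A2, 24 in A1 and at most 1 in the others. A2 and A1 were also the high embryos for PAG2. These patterns crossed the sexes for NPSR1, PID1 and CPQ.

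Sex was the only labelled difference among the 8 embryos. The 5 male and the 3 female embryos were compared with edgeR's quasi-likelihood test over 7963 genes, and 52 genes (0.653%) were called, which required an adjusted p-value below 0.05 together with at least a 2-fold change. Of these 16 (0.201%) were higher in male and 36 (0.452%) in female embryos. DESeq2 called 116 genes and edgeR's exact test 119. DDX3Y, a Y-linked helicase and the gene by which the embryos had been sexed, had 53.7, 64.2, 71.8, 102 and 112 CPM in the male embryos and 0 counts in each female embryo, which is at least 117-fold higher in males when 3 counts per female embryo stand for 0. UTY, a Y-linked demethylase, had 41.8, 41.3, 41.3, 16.1 and 19.8 CPM in the male embryos and 3.74, 2.43 and 1.18 CPM in the female embryos, where 16, 11 and 5 counts remained. EIF1AY had 2 to 34 counts in the male embryos and 0 in the female embryos and was not tested.

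USP9Y did not follow the sex of the embryo. It had 122, 100.3, 118, 132 and 132 CPM in the male and 123, 87.2 and 97.3 CPM in the female embryos, and the log2 difference of male minus female for USP9Y was 0.23 ± 0.17 (SE, adjusted p = 0.599, edgeR). A related copy lies on the X chromosome, so the assignment of reads to USP9Y is uncertain. Of the features higher in males, 10 had no symbol in the table. Among them ENSBTAG00000040363 had 92.1, 51.1, 87.5, 72.3 and 67.5 CPM in the male embryos and 0 counts in the female embryos, and ENSBTAG00000045544 had 70.2, 81.8, 115, 102 and 89.2 CPM in the male embryos and at most 1 count in a female embryo. The named genes higher in males beside DDX3Y and UTY were FKBP4, IMPACT, A2M and IFT172. FKBP4, a co-chaperone of steroid receptors, had 144, 134, 138, 96.7 and 89.2 CPM in the male and 47.5, 52.5 and 46.9 CPM in the female embryos. IMPACT had 94.2, 143, 148, 106 and 112 CPM in the male and 62.01, 40.3 and 56.6 CPM in the female embryos. Without A7 the adjusted p of IMPACT rose to 0.0626, that of IFT172 exceeded the threshold without A2, A6, A7 or A9 (0.0521 to 0.115), and A2M was no longer called without A2, A3, A8, A6, A7 or A9 (adjusted p up to 0.178).

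XIST, the RNA that silences one X chromosome in females, had 9.27, 3.45, 6.30, 10.7 and 8.97 CPM in the male and 107, 141 and 72.9 CPM in the female embryos. The log2 difference of male minus female for XIST was -3.81 ± 0.33 (SE, adjusted p = 2.42e-05, edgeR), and the 20 to 48 counts in male embryos were above 0 in each. PIM2, a kinase gene of the X chromosome, had 3.18, 4.49, 4.72, 5.82 and 2.60 CPM in the male and 47.7, 65.1 and 22.3 CPM in the female embryos, a log2 difference of -3.43 ± 0.39 (adjusted p = 4.30e-04, edgeR). Every female embryo was higher than every male embryo for both genes. JAKMIP2 had 10.3, 10.7, 3.34, 14.8 and 1.89 CPM in the male and 55.9, 55.6 and 23.7 CPM in the female embryos (log2 difference -2.46 ± 0.52, adjusted p = 0.0309, edgeR). Its adjusted p rose to between 0.0543 and 0.156 without A1, A2, A3, A6 or A7. MGC127538, given above, had a log2 difference of -2.27 ± 0.32 (adjusted p = 0.00191, edgeR). GGNBP1, which binds a germ cell protein, had 20.1, 16.4, 12.00, 22.6 and 35.4 CPM in the male and 108, 91.6 and 73.6 CPM in the female embryos, with a log2 difference of -2.11 ± 0.30 (adjusted p = 0.00179, edgeR).

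Many of the other genes higher in females are known to lie on the X chromosome of mammals, among them SLC6A8, TIMP1, ARAF, FMR1, ATRX, SMC1A, HMGB3, PDK3, NDUFA1 and NSDHL. Their log2 differences of male minus female ran from -1.52 for SLC6A8 to -1.05 for ATRX. ATRX, a chromatin remodeller, had 285, 173, 213, 233 and 279.7 CPM in the male and 502, 467 and 491 CPM in the female embryos, so that all female values lay above all male values. Without A2 the log2 difference of ATRX was -0.95, under the 2-fold limit. FMR1 lost its call without A7 (adjusted p = 0.0626, edgeR), PDK3 without A2, A6 or A9 (up to 0.134), ARAF without A2, A6, A7 or A9 (up to 0.134), and HMGB3 without any single embryo but A8 (up to 0.175) and on thinned counts (0.0523). The positions of genes on chromosomes were not read from the files, and the share of X-linked genes was not computed. NSDHL had a log2 difference of -1.22 ± 0.26 (adjusted p = 0.0317, edgeR), which rose above the threshold without A2, A3, A8, A6 or A9, to between 0.0540 and 0.188.

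Of the 190 genes tested in the lineage and metabolic lists together, edgeR's quasi-likelihood test called 1 (0.526%), beside 0.653% of all genes tested, a share near the background. It was NSDHL, while DESeq2 and edgeR's exact test also called IFNT and GLDC (glycine decarboxylase). The summed CPM of the sterol list was 547, 552, 600.0, 492.7 and 536 in the male and 680.0, 673 and 774 in the female embryos, without overlap. The blood and immune markers did not overlap either, with sums of 17.2, 14.3, 24.6, 34.9 and 20.3 CPM in the male and 62.5, 71.7 and 44.3 CPM in the female embryos. ALAS2, the heme synthesis gene of red blood cells that lies on the mammalian X chromosome, had 1.59, 0.173, 12.4, 0.447 and 4.72 CPM in the male and 40.7, 42.7 and 6.63 CPM in the female embryos, with overlap, and was called by the exact test alone of the 3 tools. HBB and PTPRC had at most 3 counts in any embryo, and the part of blood or immune cells in the differences between the sexes was not tested. The sums of the other 20 of the 22 lists overlapped between the sexes. Sums without overlap were thus about as rare among the lists as among single genes tested, of which 9.67% did not overlap. Among the 20 most variable genes XIST, MGC127538 and GGNBP1 were called and 6 did not overlap between the sexes, while none of the 20 least variable genes was called or free of overlap. Of the 100 most variable genes 4 were called and 17 did not overlap. Of the 6966 genes counted in every embryo, from which they were drawn, 34 were called and 644 did not overlap. Over all genes tested, a wider set, the shares were 0.653% and 9.67%. The ranking used the same values as the sex comparison, so these shares are not independent of it. Without the labelled difference in sex, that is with the CV computed within each sex and pooled, the median CV over all genes counted in every embryo was 0.230 instead of 0.248.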

How the data were processed

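RNA of single blastocysts was amplified with an oligo-dT based low-input kit that does not mark strand and sequenced as paired ends. After quality trimming, the authors aligned the reads to the bovine assembly UMD 3.1 in CLC Genomics Workbench. They deposited raw, unnormalized counts of uniquely placed exon fragments for each gene in each embryo. Reads of overlapping genes on opposite strands could not be told apart. The labels and the methods name different sequencer models, and neither lane nor donor cow is labelled per embryo.

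The 8 in vivo columns were matched by name, and their counts were scaled by TMM factors (edgeR 4.0.16, R 4.3.3). The CV was taken over 8 embryos, and the CV from counting was the square root of the mean of 1/count. Depth limits the low genes: intervals of counts cover counting error only. The sexes were compared with edgeR's quasi-likelihood test where every embryo of at least 1 sex had at least 15 counts, with Benjamini-Hochberg adjustment over all genes tested. Embryos are separate animals, but those of one cow are not independent families. DESeq2 1.42.0, edgeR's exact test, other filters, scalings and thinned counts were alternatives. Both scripts were tested on simulated data.

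Named genes were the 20 highest in mean CPM, the 20 highest and 20 lowest in CV, in each list the 5 highest in mean, the highest and lowest in CV and those under 15 counts in every embryo, and in the sex comparison the 5 largest called changes in each direction at 10 CPM or more without overlap, of which only 2 features without a symbol are printed. Other genes are named outside this rule, among them KRT19, PRSS8, SFN, LDHA, PSAT1, PSPH, SHMT2, GUSB, FASN and ACACA. Their patterns by embryo are descriptions of genes that were not preset. The members and lists were chosen with earlier results of these data known, and the lists of mitochondrial, ribosomal and stress response genes after the counts were read. Gene symbols are as listed, and numbered ones stand for several features of one symbol. Of 20006 symbols 14630 were found in the RefSeq gene table of assembly ARS-UCD2.0, as were 0 of 4615 Ensembl identifiers, so no position is given. Cultured embryos were not used here. The values of 3 listed genes are not reported here.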

Additional observations from a re-analysis of the deposited data

Results flagged for a closer look

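For 177 items, which were genes named by the rule given above and summed lists, the highest or lowest of the 8 embryos was examined. Its gap to its nearest neighbour was judged by Dixon's criterion. One embryo stood apart in 17 of them, beside the 1 in 20 that chance gives for normally distributed values not chosen by their spread. Many of these genes were named for an extreme CV, so that rate does not apply to them. CPM was used without a log, for which the rate need not hold either, and in all but GRHL1 the embryo that stood apart was the highest. The embryo was A3 in 5, A9 in 4, A2 in 3, A8 in 3 and A4 in 2, and among these 177 never A1, A6 or A7. LDHA, high in A6 as given above, is not named by that rule and was not among the 177.

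In A3, DPEP1 had 176.7 CPM against 6.87 to 75.6 in the other 7 embryos, PHGDH had 104.7 CPM against 10.4 to 41.6, ATP6V1C2 had 44.5 CPM against 3.98 to 21.3 and ID2 had 33.4 CPM against 6.04 to 18.6. The summed CPM of the sperm transcripts was also highest in A3, at 125.9 CPM against 64.0 to 87.9, and ODF2 alone gave 109.8 CPM of it, while the protamine genes were at 0. PHGDH begins serine synthesis and ID2 is an inhibitor of basic helix-loop-helix factors.

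In A9, GRHL1 was low, at 45.7 CPM against 112.1 to 163.1, and TXNRD1 was high, at 510.9 CPM against 246.7 to 339.5. SCD had 40.7 CPM in A9 against 8.74 to 19.7, and BAMBI 28.2 CPM against 2.93 to 14.4. A9 also had the lowest mean correlation with the other 7 embryos, 0.926, where the others had 0.931 to 0.939, and the fewest genes with at least 1 count, 13136.

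In A2, SLC2A3 had 4743 CPM against 2037 to 3172, PAG2 had 117.7 CPM against 5.31 to 46.9 and CIP29 had 273.4 CPM against 235.3 to 250.2. In A8, DDIT3 had 106.2 CPM against 12.4 to 50.4, RAD54L2 had 35.4 CPM against 4.26 to 12.4 and NUP35 had 166.2 CPM against 139.4 to 150.1. In A4, TXN2 had 352.2 CPM against 235.9 to 285.8 and SDHD had 147.7 CPM against 120.7 to 129.6. NUP35, CIP29 and SDHD are steady genes, with a CV of 0.0674 or less, so the embryo that stood apart in them differed by a small amount. Whether donor cow, embryo size or amplification moved with these values was not tested, since the labels give none of them per embryo.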

How the results depend on the processing

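No paired analysis was possible because the male and the female embryos share no replicate number in the labels. Levels per kilobase were not run, since no exon lengths of the build were held. All 242 recomputed sums of the 22 gene lists and all 1936 recomputed mean levels moved by less than 1 SD, but leaving out 1 of 8 embryos cannot move a mean that far. The number of genes at the limit was 6981 to 7097 with 1 embryo left out.

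The 10 and the 100 most counted genes took 9.18% and 25.6% of counts without the genes of the mitochondrial genome and the ribosomal RNA features, the latter of which had 0 counts. With 1 embryo left out they took 11.2% to 11.5% and 29.4% to 29.7%. The median CV was 0.232 with the counting part removed, 0.678 with every gene counted in any embryo, 0.211 at 50 counts, 0.230 within sexes and 0.243 on thinned counts, the SD of log2(CPM + 1) had a median of 0.354, and leaving out 1 embryo gave 0.244 (without A3) to 0.248.

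The ranking at each end depended on the setting. Of the 20 most variable genes 12 stayed among the 20 by the SD of log2(CPM + 1), 4 at a limit of 50 counts, which removes the other genes, and 7 after division by the trend with level. With 1 embryo left out 14 to 17 stayed. Of the 20 least variable genes 11 stayed within sexes, 8 after division by the trend and 1 with the counting part removed, where 22 genes tie at 0, and 9 (without A4) to 16 stayed with 1 embryo left out.

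Between the sexes DESeq2 called 116 genes, edgeR's exact test 119 and the quasi-likelihood test 92 with every gene counted in any embryo, against 52. Leaving out 1 embryo gave 41 to 69 calls. DESeq2 kept 51 and the exact test 52 of the 52 genes. With 1 embryo left out only 35 (without A9) to 48 (without A8) of the 52 were kept. The filter of at least 15 counts in all 8 embryos kept 34, which were all of the 52 that pass it. No log2 difference changed sign. PAG2 was called with every gene counted in any embryo (adjusted p = 0.0259, edgeR), as was IFNT (0.0393), and their adjusted p over all settings reached 0.384 and 0.375. The count of genes without overlap between the sexes was 773 with DESeq2's size factors, a setting added after the data were seen, against 770.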
